A study of Arabidopsis thaliana with 15 samples.

Results

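The Aux/IAA, ARF and auxin receptor genes of Arabidopsis were followed through a lineage of plants that had inherited an altered growth state without the transgene that started it. The set is a list of 48 gene identifiers, 48 of the 33977 features in the count tables, and holds 29 Aux/IAA genes (IAA1 to IAA20 and IAA26 to IAA34), 15 ARF genes (ARF1 to ARF11 and ARF16 to ARF19) and 4 receptor genes (TIR1, AFB1, AFB2 and AFB3). Its members were listed by gene name, and the list was made with earlier results of these data known.

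RNA-seq was done on 15 plants of the Columbia (Col-0) accession in 5 groups of 3. Gen5 memory (MM) and Gen1 memory plants carried no MSH1-RNAi transgene. They kept the slow growth, late flowering and pale leaves that followed silencing of MSH1, a gene for an organelle protein. Gen1 nonmemory (NM) plants were transgene-free progeny of the same parent as the Gen1 memory plants and looked normal, and Gen5 WT and Gen1 WT plants came from a wild-type line that had passed through the same transformation procedure and was kept in parallel. The Gen5 memory plants descended by selfing from 1 plant per generation, so the lineage is a single line. All plants grew under 12 h days and were taken at bolting, as whole rosettes by the sample labels and as whole plants by the protocol. Age in days is not among the sample labels. Memory plants flower late, so a difference in age at bolting cannot be told apart from the memory state. In bulk RNA of this kind, fewer cells of a type and less RNA per cell cannot be told apart.

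Auxin acts on transcription through these 3 families. Aux/IAA proteins are short-lived repressors that bind ARF transcription factors and recruit co-repressors of the TOPLESS family. Auxin joins an Aux/IAA protein to a receptor of the TIR1/AFB family, which marks the Aux/IAA protein for breakdown and frees the ARF. Many Aux/IAA genes are themselves switched on by auxin, which makes them both targets and brakes of the response.

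Each plant had between 77169986 and 79202824 counts on genes, so depth differed little. Leaf genes (RBCS1A, LHCB1.1, RCA and CA1, all 4 detected) summed to between 2067000 and 2180000 normalized counts in Gen5 memory plants and between 1808000 and 2138000 in Gen1 memory plants, against 1370000 to 1681000 in nonmemory, 1332000 to 1624000 in Gen5 WT and 1607000 to 1705000 in Gen1 WT plants. Floral organ genes (6 genes, with LFY at 0 in all plants) summed to between 66.1 and 83.8 in Gen5 memory plants and between 50.8 and 76.0 in Gen1 memory plants, against 63.0 to 96.7 in nonmemory, 91.1 to 115 in Gen5 WT and 99.8 to 112 in Gen1 WT plants. Leaf sums were thus higher in memory plants without overlap, and floral sums lower than in both WT groups without overlap. Floral sums of memory and nonmemory plants overlapped. Root genes (6 genes, with EXPA7, PLT1 and PLT2 at 0 in all plants) summed to between 44.1 and 57.5 in Gen1 WT plants and to between 0 and 30.2 in the other 4 groups. A normalized count is a read count scaled to the mean effective library size of the 15 plants.

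Of the 48 members, 44 had enough reads to be tested in every comparison of 2 groups. The other 4, IAA15, IAA20, IAA31 and IAA33, had at most 12.2 normalized counts in any plant and were tested in none. Levels are compared between genes per kilobase of exon. Over the 15 plants, ARF2, a repressor of growth, had the highest mean level with 8035 normalized counts per kb, ahead of the Aux/IAA genes IAA9 (6148 per kb) and IAA16 (4731 per kb). ARF1, a close relative of ARF2, was second among the ARF genes (2102 per kb). TIR1 was the most abundant receptor with 2488 per kb, followed by AFB3 (1429 per kb), AFB2 (1284 per kb) and AFB1 (462 per kb). The lowest tested members were IAA32 (26.3 per kb), IAA34 (26.5 per kb) and IAA30 (41.7 per kb). The 8 ARF genes of the ARF12 clade, which are known from embryos and seeds and are no members here, were at 0 in all plants.

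**Figure D1:**
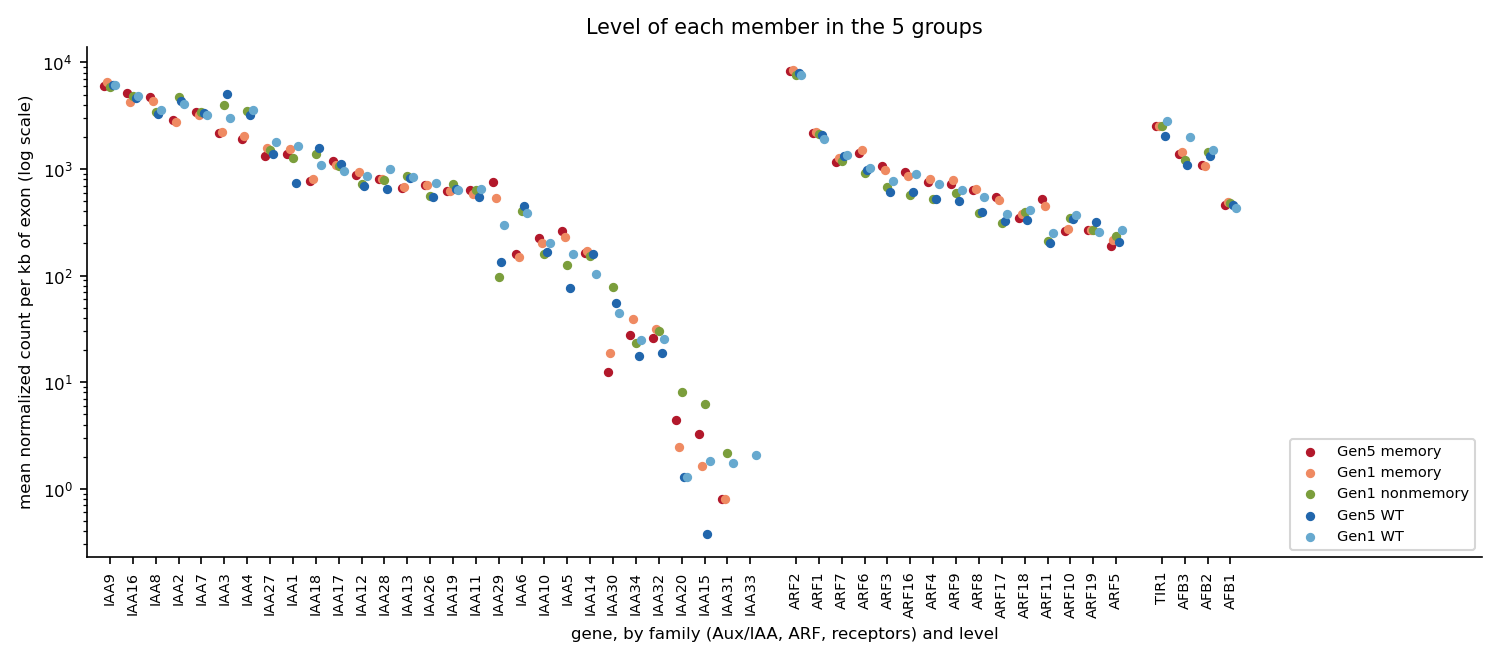
Mean normalized count per kb of exon (log axis) of each of the 48 members in the 5 groups, 3 plants each, with genes ordered by level within each family; a group mean of 0 is not drawn. ARF2, IAA9 and IAA16 stand at the top, and IAA20, IAA15, IAA31 and IAA33 lie at the bottom.

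The question for these genes was whether and how their transcript levels differed in memory plants. It was asked in 3 comparisons, namely Gen1 memory against Gen1 nonmemory, Gen1 memory against Gen1 WT and Gen5 memory against Gen5 WT. The first and second share the Gen1 memory plants. A gene was called when the edgeR quasi-likelihood test gave an adjusted p below 0.05 and the log2 fold change was over 0.5 in size. Called Aux/IAA repressor genes went in both directions against nonmemory and in Gen5, with more lower than higher, and were all lower against Gen1 WT. Called ARF genes were all higher in memory plants, and no receptor gene was called. The leaf sums given above were higher in memory plants, and the floral sums were lower than in WT plants. Of the 4 leaf genes, 2, 1 and 3 were called higher in the order of the comparisons, and none lower. Over all features, 11.1%, 9.52% and 13.3% were called higher. Only 2 of the 6 floral genes were tested, with 1 higher and 1 lower against Gen1 WT and none called in the other comparisons. The part of leaf and floral genes in these results was not tested.

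Against nonmemory plants, 15 of the 44 tested members were called in Gen1 memory plants, or 9 higher and 6 lower. Over all 19760 tested features, 23.4% were called, with 11.1% higher and 12.2% lower. Among the members, 7 of 15 ARF genes rose and none fell, and 2 of 25 tested Aux/IAA genes rose and 6 fell. The median log2 fold change was 0.42 over ARF genes and 0.04 over Aux/IAA genes, against 0.01 over all features.

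Against Gen5 WT, 18 of the 44 tested members were called in Gen5 memory plants, or 12 higher and 6 lower. Over all 19800 tested features, 27% were called, with 13.3% higher and 13.7% lower. The members called were 8 of 15 ARF genes, all higher, and 10 of 25 Aux/IAA genes, of which 4 were higher and 6 lower. The median log2 fold change was 0.53 over ARF genes and 0.10 over Aux/IAA genes, against 0.01 over all features.

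Against Gen1 WT, 6 of the 44 tested members were called in Gen1 memory plants, or 2 higher and 4 lower. This is below the 20% called over all 19849 tested features (9.52% higher and 10.5% lower). ARF6 and ARF11 rose, and IAA2, IAA4, IAA6 and IAA30 fell. These 6 genes were called in the same direction in all 3 comparisons, and no member was called in opposite directions. In all, 18 members were called in at least 1 of the 3 comparisons.

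**Figure D2:**
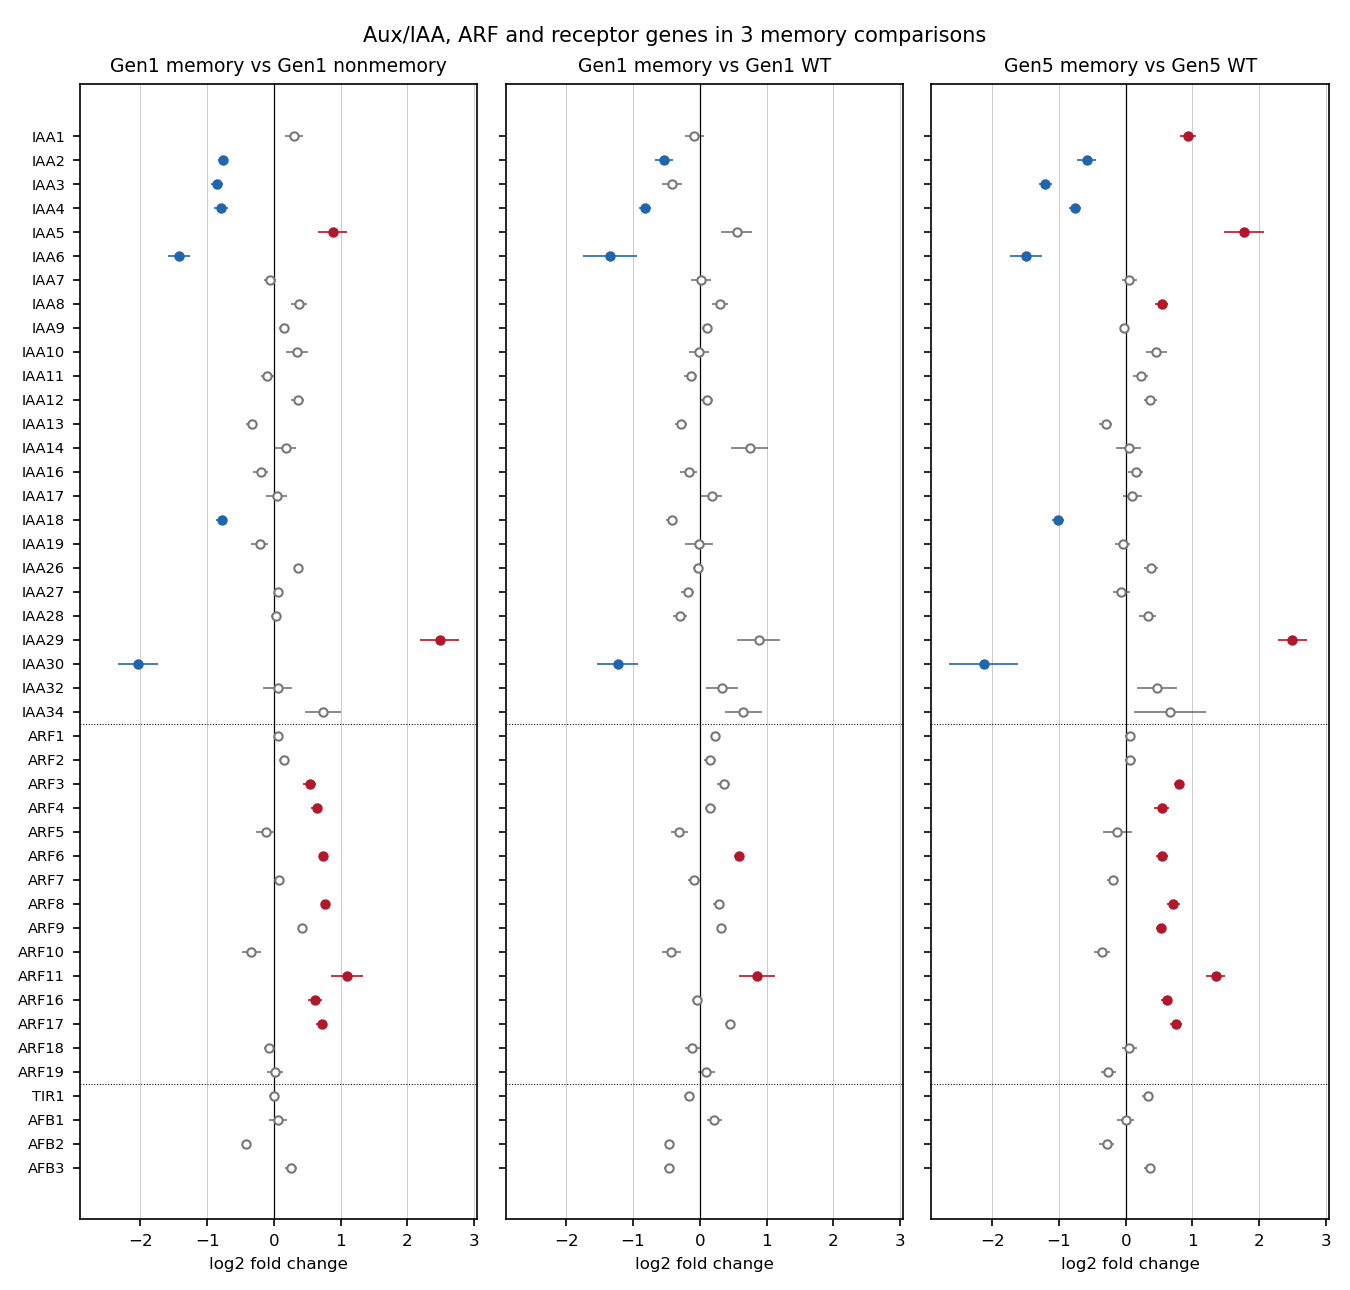
Log2 fold change with its SE for the 44 tested members (rows, in 3 families) in the 3 memory comparisons (panels); filled red points were called higher, filled blue points lower, and open points were not called. ARF6 and ARF11 are red and IAA2, IAA4, IAA6 and IAA30 blue in every panel, and no ARF gene is blue in any.

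Among the repressor genes that fell, IAA4 (AT5G43700, TAIR10.1 chr5:17550179-17551715, plus strand) gave the most even result. IAA4 had 2426, 2412 and 2887 normalized counts in Gen5 memory plants and 2479, 2830 and 2980 in Gen1 memory plants, against 5405, 4642 and 4348 in Gen1 nonmemory plants, 4288, 4370 and 4543 in Gen5 WT plants and 4804, 4582 and 5326 in Gen1 WT plants. All 6 memory plants lay below all 9 others. For IAA4 the log2 fold change was -0.79 ± 0.10 (SE) against nonmemory (edgeR adjusted p = 0.00107), -0.82 ± 0.09 against Gen1 WT (edgeR adjusted p = 0.000779) and -0.76 ± 0.09 in Gen5 (edgeR adjusted p = 0.000426).

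IAA2 (AT3G23030, chr3:8180646-8182095, minus strand), a typical auxin-induced repressor gene, fell in each comparison. It had 3428, 4865 and 3517 normalized counts in Gen5 memory plants and 3808, 3981 and 3568 in Gen1 memory plants, against 6912, 6440 and 5975 in nonmemory plants, 5522, 5801 and 6519 in Gen5 WT plants and 4986, 4872 and 6752 in Gen1 WT plants. The memory plants were lower in each comparison without overlap. For IAA2 the log2 fold change was -0.76 ± 0.08 against nonmemory (edgeR adjusted p = 0.00041), -0.54 ± 0.13 against Gen1 WT (edgeR adjusted p = 0.0183) and -0.59 ± 0.14 in Gen5 (edgeR adjusted p = 0.0125).

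IAA6 (AT1G52830, chr1:19672476-19673652, minus strand), a repressor gene also known as SHY1, had 95.3, 187 and 129 normalized counts in Gen5 memory plants and 115, 121 and 150 in Gen1 memory plants, against 307, 374 and 354 in nonmemory plants, 391, 350 and 418 in Gen5 WT plants and 163, 289 and 539 in Gen1 WT plants. The Gen1 WT plants were the most spread, and the lowest of them lay near the memory plants. For IAA6 the log2 fold change was -1.42 ± 0.16 against nonmemory (edgeR adjusted p = 0.000592), -1.35 ± 0.40 against Gen1 WT (edgeR adjusted p = 0.0381) and -1.49 ± 0.24 in Gen5 (edgeR adjusted p = 0.00188).

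IAA30 (AT3G62100, chr3:22995686-22996809, plus strand) encodes one of the Aux/IAA proteins that lack the degron, the stretch by which the receptors hold the protein. It was expressed at a low level, with 21.7, 11.2 and 4.19 normalized counts in Gen5 memory plants and 24.0, 13.7 and 18.1 in Gen1 memory plants, against 87.4, 63.9 and 80.3 in nonmemory plants, 40.5, 56.0 and 67.7 in Gen5 WT plants and 40.5, 42.2 and 49.7 in Gen1 WT plants. All 6 memory plants were below all other plants. For IAA30 the log2 fold change was -2.04 ± 0.30 against nonmemory (edgeR adjusted p = 0.00166), -1.23 ± 0.31 against Gen1 WT (edgeR adjusted p = 0.0196) and -2.13 ± 0.51 in Gen5 (edgeR adjusted p = 0.0116).

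Only 2 of the 6 calls against Gen1 WT, IAA4 and ARF6, held when each plant was left out in turn. IAA6 lost its call in 5 of the 6 fits and kept it only without Gen1 WT replicate 1, and its log2 fold change without Gen1 WT replicate 3 was -0.81 (edgeR adjusted p = 0.0883). IAA30 lost its call without Gen1 memory replicate 2 and without each of the Gen1 WT plants, with adjusted p up to 0.0707. IAA2 lost its call without Gen1 memory replicate 3 and without Gen1 WT replicate 3 (-0.37). ARF11 lost it without Gen1 memory replicates 2 or 3 and without Gen1 WT replicates 1 or 2, with adjusted p up to 0.148. The lowest count of calls was 3, without Gen1 memory replicate 3. Calls were also gained, namely IAA29 without Gen1 WT replicate 3 (1.33, edgeR adjusted p = 0.00708), IAA14 without the same plant (1.01), IAA3 without Gen1 WT replicate 1 (-0.54) and AFB3 without Gen1 WT replicate 2 (-0.51).

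IAA3 and IAA18 fell in Gen1 memory plants against nonmemory and in Gen5 memory plants, and were not called against Gen1 WT. IAA3 (AT1G04240, chr1:1128149-1129689, minus strand) is SHY2, which limits the root meristem. It had 2985, 3230 and 2693 normalized counts in Gen5 memory plants and 2878, 3102 and 3027 in Gen1 memory plants, against 6106, 5396 and 4857 in nonmemory plants, 6368, 6794 and 7498 in Gen5 WT plants and 3341, 3661 and 5131 in Gen1 WT plants. The memory plants of both generations lay close together, and the Gen1 WT plants lay above them, with the highest Gen1 WT plant above the lowest nonmemory plant.

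For IAA3 the log2 fold change was -0.86 ± 0.09 against nonmemory (edgeR adjusted p = 0.000464), -0.42 ± 0.15 against Gen1 WT (edgeR adjusted p = 0.0724) and -1.20 ± 0.10 in Gen5 (edgeR adjusted p = 6.94e-05). Of the exon bases of IAA3, 39.6% are shared with a gene on the opposite strand, AT1G04230, and the kit did not keep strand, so that reads of the pair in this stretch cannot be told apart.

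IAA18 (AT1G51950, chr1:19305081-19307518, plus strand) had 1248, 1461 and 1414 normalized counts in Gen5 memory plants and 1362, 1525 and 1394 in Gen1 memory plants, against 2560, 2219 and 2623 in nonmemory plants, 2636, 2685 and 3049 in Gen5 WT plants and 1826, 1833 and 2126 in Gen1 WT plants. The order of the group means was that of IAA3. For IAA18 the log2 fold change was -0.78 ± 0.09 against nonmemory (edgeR adjusted p = 0.000525), -0.42 ± 0.09 against Gen1 WT (edgeR adjusted p = 0.00995, under the fold threshold) and -1.01 ± 0.10 in Gen5 (edgeR adjusted p = 0.000135).

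The Aux/IAA genes that rose were fewer. IAA29 (AT4G32280, chr4:15583332-15584903, plus strand), known as a target of PIF transcription factors in shade and warmth, had the highest log2 fold change of any tested member in each memory comparison. It had 878, 1217 and 785 normalized counts in Gen5 memory plants and 805, 701 and 569 in Gen1 memory plants, against 185, 92.0 and 94.8 in nonmemory plants, 188, 131 and 195 in Gen5 WT plants and 321, 235 and 582 in Gen1 WT plants. The highest Gen1 WT plant lay just above the lowest Gen1 memory plant, and in the other 2 memory comparisons the groups did not overlap.

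For IAA29 the log2 fold change was 2.48 ± 0.29 against nonmemory (edgeR adjusted p = 0.000671), 0.88 ± 0.32 against Gen1 WT (edgeR adjusted p = 0.0687) and 2.49 ± 0.22 in Gen5 (edgeR adjusted p = 9.65e-05). Against Gen1 WT, it was called by DESeq2 (0.89, adjusted p = 0.011) and in the fit of all 15 plants (0.87, adjusted p = 0.0449). PIF and clock genes stand upstream of IAA29 in the known growth pathway. They were counted together, so the counts do not show how the PIF genes alone moved. Of these 12 genes, 8 were called higher in Gen1 memory plants against nonmemory, 7 higher and 1 lower against Gen1 WT, and 7 higher in Gen5. Over all features, 11.1%, 9.52% and 13.3% were called higher in the same order. The morning gene PRR9 had the largest rise among the 12 genes against nonmemory (5.01, edgeR adjusted p = 9.31e-05). Neither the hour of harvest nor the part of these genes in the auxin results was tested.

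IAA5 (AT1G15580, chr1:5365512-5366497, minus strand), an early auxin-induced gene, had 148, 264 and 202 normalized counts in Gen5 memory plants and 180, 162 and 201 in Gen1 memory plants, against 120, 73.6 and 102 in nonmemory plants, 45.4, 83.5 and 52.0 in Gen5 WT plants and 133, 86.2 and 154 in Gen1 WT plants. Its log2 fold change was 0.88 ± 0.22 against nonmemory (edgeR adjusted p = 0.0152), 0.55 ± 0.23 against Gen1 WT (edgeR adjusted p = 0.109) and 1.77 ± 0.31 in Gen5 (edgeR adjusted p = 0.00265). IAA1 and IAA8 were called higher in Gen5 memory plants alone, with log2 fold changes of 0.94 ± 0.12 and 0.54 ± 0.09. The call on IAA8 dropped under the fold threshold without Gen5 memory replicate 1 (0.47) or Gen5 WT replicate 1 (0.49), while IAA10 was called without Gen5 WT replicate 1 (0.57) and IAA34 without Gen5 memory replicate 3 (1.09).

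**Figure D3:**
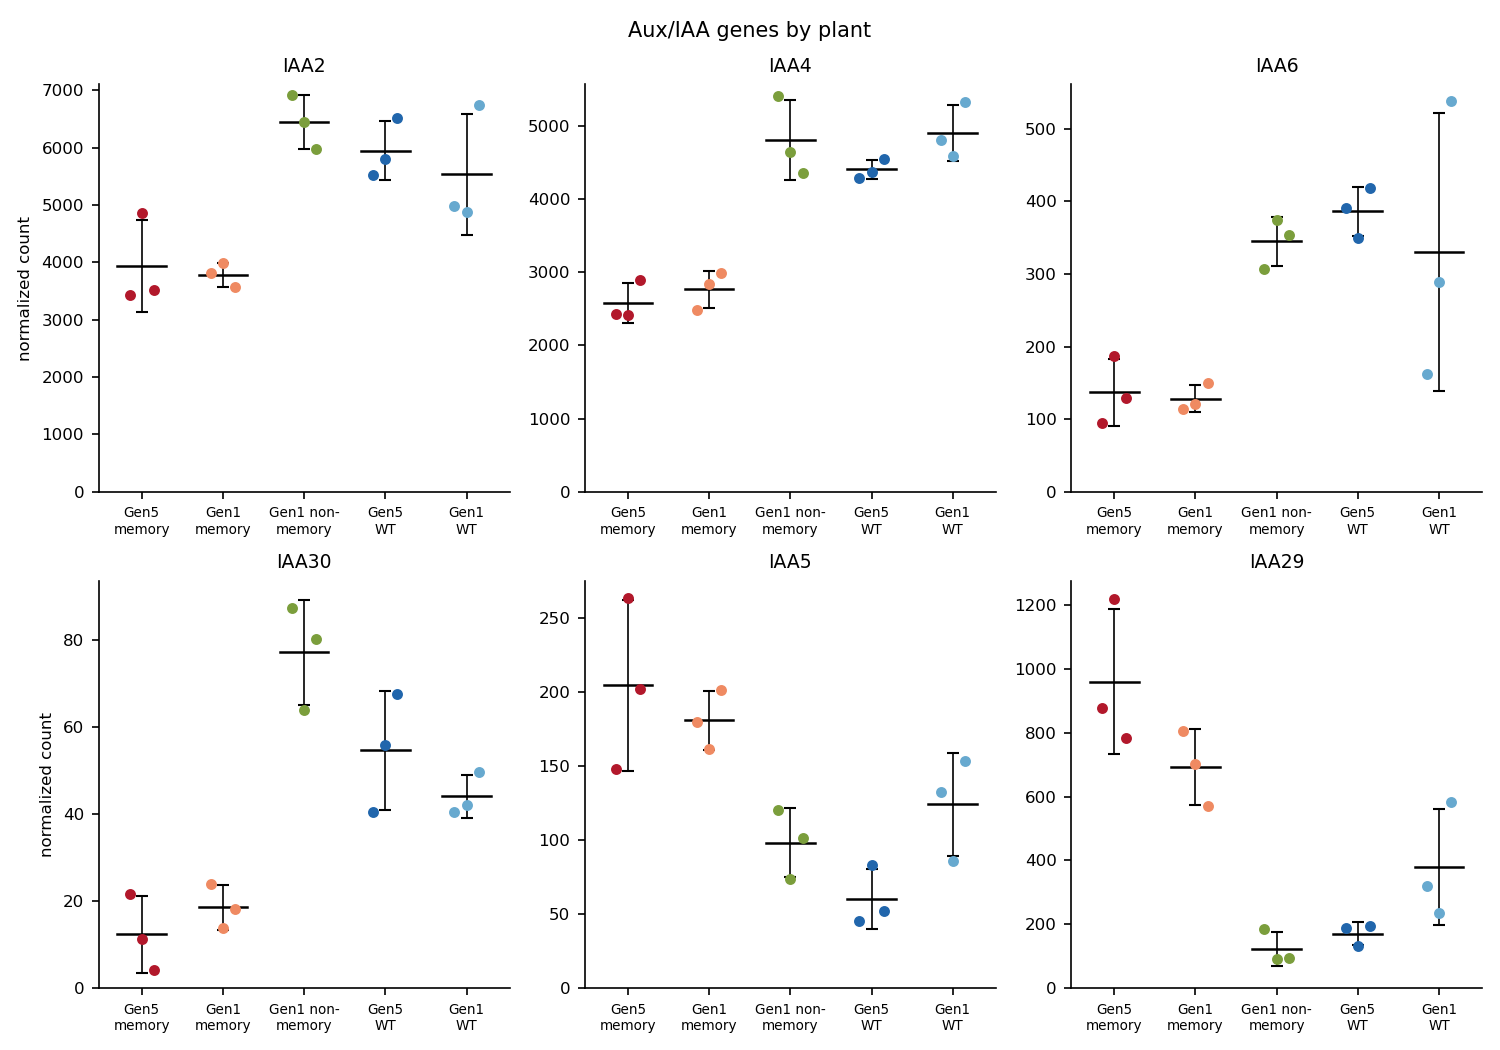
Normalized counts of 6 Aux/IAA genes in each plant (points), with the group mean (line) and SD (bar) over 3 plants, for Gen5 memory, Gen1 memory, Gen1 nonmemory, Gen5 WT and Gen1 WT from left to right. IAA2, IAA4, IAA6 and IAA30 are lower and IAA5 and IAA29 higher in the memory groups. The most spread group is Gen1 WT in IAA6 and Gen5 memory in IAA29.

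The most abundant repressor genes were not called in any memory comparison. IAA9, which restrains leaf growth in other species such as tomato, had 12965, 13235 and 12411 normalized counts in Gen5 memory plants, against 12953, 13279 and 13156 in Gen5 WT plants. In Gen1 it had 14499, 14429 and 13097 in memory plants, against 12515, 12990 and 12514 in nonmemory plants and 13699, 12776 and 12744 in Gen1 WT plants. Its log2 fold changes were between -0.02 (Gen5) and 0.15 (against nonmemory), with edgeR adjusted p of 0.848 and 0.133.

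IAA16 had 9749, 11997 and 9326 normalized counts in Gen5 memory plants and 7852, 9741 and 8105 in Gen1 memory plants, against 11170, 9274 and 9147 in nonmemory plants, 8777, 9496 and 9957 in Gen5 WT plants and 9022, 8735 and 11347 in Gen1 WT plants. These ranges overlap in all 3 comparisons. The well-studied repressors IAA7 (AXR2), IAA12 (BODENLOS), IAA14 (SOLITARY-ROOT), IAA17 (AXR3), IAA19 (MSG2) and IAA28 were also not called, with log2 fold changes between -0.30 (IAA28 against Gen1 WT) and 0.75 (IAA14 against Gen1 WT, edgeR adjusted p = 0.0813). Summed over all 29 genes, Aux/IAA transcripts came to between 60990 and 67900 normalized counts in Gen5 memory plants and between 60970 and 64420 in Gen1 memory plants, against 65910 to 71720 in nonmemory, 63370 to 71400 in Gen5 WT and 62050 to 74380 in Gen1 WT plants.

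The degron that TIR1 reads in Aux/IAA proteins has a core of glycine, tryptophan and 2 prolines. Codons for this core were found in the longest coding sequence of 23 of the 29 Aux/IAA genes and were not found in IAA20, IAA30, IAA31, IAA32, IAA33 and IAA34. The genes that fell therefore included both kinds, as did the genes that were not called. Below are 30 bases around the core for 3 genes that fell and 2 that rose, from RefSeq's TAIR10.1 sequence, with the codons of the core in capitals.
IAA2 (chromosome 3, minus strand): atcgttGGTTGGCCACCAgtgagatcttcc
IAA4 (chromosome 5, plus strand): attgttGGATGGCCACCAgttagatcttac
IAA6 (chromosome 1, minus strand): gcggtgGGATGGCCACCTgtgtgttcttac
IAA5 (chromosome 1, minus strand): gttgtgGGTTGGCCACCGgtttgttcgtac
IAA29 (chromosome 4, plus strand): gttgttGGATGGCCACCAgtaaaaacatgt

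Upstream regions of the members were searched on both strands for the auxin response element, written TGTCTC or TGTCGG, and for the G-box CACGTG, which PIF proteins are known to bind. In the 300 bases before the annotated start, TGTCTC was found in 11 of 29 Aux/IAA genes (37.9%), against 13.0% of 27443 protein-coding genes. TGTCGG was found in 6 of 29 (20.7%), against 4.91%, and the G-box in 4 of 29 (13.8%), against 7.09%. Of the 15 ARF genes, 2 held TGTCTC (13.3%), 2 held TGTCGG (13.3%) and none held the G-box, and the 4 receptor genes held none of these. The evening element AAAATATCT was found before no member and before 2.79% of all genes.

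IAA29 held none of the 4 motifs in this window. The region before IAA5, which rose, is printed because it holds both forms of the element. Motifs are in capitals, and a motif on the other strand is read as its reverse complement. It is chr1:5366498-5366797 (minus strand) of TAIR10.1.
IAA5: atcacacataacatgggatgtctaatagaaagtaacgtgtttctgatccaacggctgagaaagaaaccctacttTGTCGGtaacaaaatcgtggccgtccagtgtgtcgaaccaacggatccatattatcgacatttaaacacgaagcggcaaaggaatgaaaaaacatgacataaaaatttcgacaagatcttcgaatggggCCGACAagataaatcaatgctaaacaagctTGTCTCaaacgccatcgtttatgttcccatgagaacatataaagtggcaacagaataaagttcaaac

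Several ARF genes are known to be restrained by small RNAs. MicroRNA miR160 acts on ARF10, ARF16 and ARF17, miR167 on the activators ARF6 and ARF8, and small RNAs cut from the TAS3 transcript on ARF2, ARF3 and ARF4. The mature miRNAs, from RefSeq's annotation of TAIR10.1, are shown with the seed (bases 2 to 8) in capitals, followed by the 21-base window of TAS3 that paired best with ARF3 and ARF4.
miR160a-5p (chromosome 2): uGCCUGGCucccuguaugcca
miR167a-5p (chromosome 3): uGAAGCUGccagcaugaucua
TAS3 window (chromosome 3): uuucuugaccuuguaagaccc

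A site that pairs with one of these sequences, counting 1 for a mismatch and 0.5 for a wobble pair (G with U) up to a total of 4, was found in 8 of the 15 ARF genes, each time within coding sequence. They are the 8 genes named above. The TAS3 window was chosen by its pairing with ARF3 and ARF4, so the sites in these genes are no independent find. ARF6 lies at the limit of 4. The sites are shown with bases that do not form a regular pair in capitals.
ARF6 (miR167a-5p, 4 mismatches): GagatcaGgctggcagcttGT
ARF8 (miR167a-5p, 3 mismatches): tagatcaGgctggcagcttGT
ARF10 (miR160a-5p, 2 mismatches): AggAatacagggagccaggca
ARF16 (miR160a-5p, 2 mismatches and 1 wobble pair): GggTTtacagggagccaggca
ARF17 (miR160a-5p, 1 wobble pair): tggcatGcagggagccaggca
ARF2 (TAS3 window, 1 mismatch and 1 wobble pair): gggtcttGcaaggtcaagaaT
ARF3 (TAS3 window, 1 wobble pair): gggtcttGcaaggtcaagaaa
ARF4 (TAS3 window, 1 wobble pair): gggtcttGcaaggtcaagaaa

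Of these 8 genes, 6 rose in Gen1 memory plants when set against nonmemory and 1 when set against Gen1 WT, and 6 rose in Gen5 memory plants. Their median log2 fold changes were 0.63, 0.22 and 0.58 in that order. Of the 7 ARF genes with no such site, 1 rose, 1 rose and 2 rose in the same comparisons, with medians of 0.07, 0.10 and 0.05. The share of all features called higher was 11.1%, 9.52% and 13.3% in these comparisons. Against Gen1 WT each set had 1 call, so the calls did not separate the sets there. Among genes with a site, ARF2 and ARF10 were called in no memory comparison, and against Gen1 WT only ARF6 was called. Whether the sites bear on these differences was not tested.

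ARF6 (AT1G30330, chr1:10685822-10690988, minus strand) and its close relative ARF8 (AT5G37020, chr5:14629453-14634454, plus strand) are activators known for flower maturation and growth of the shoot. ARF6 had 6189, 5251 and 5942 normalized counts in Gen5 memory plants and 5922, 6513 and 6091 in Gen1 memory plants, against 3799, 3600 and 3764 in nonmemory plants, 3770, 4031 and 4222 in Gen5 WT plants and 4343, 3843 and 4189 in Gen1 WT plants. All 6 memory plants lay above all 9 others. For ARF6 the log2 fold change was 0.74 ± 0.06 against nonmemory (edgeR adjusted p = 0.000211), 0.59 ± 0.07 against Gen1 WT (edgeR adjusted p = 0.00121) and 0.54 ± 0.09 in Gen5 (edgeR adjusted p = 0.00217).

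ARF8 had 2462, 1998 and 2402 normalized counts in Gen5 memory plants and 2245, 2426 and 2373 in Gen1 memory plants, against 1445, 1393 and 1318 in nonmemory plants, 1333, 1425 and 1462 in Gen5 WT plants and 2074, 1765 and 1995 in Gen1 WT plants. Gen1 WT plants were above the other controls. For ARF8 the log2 fold change was 0.77 ± 0.07 against nonmemory (edgeR adjusted p = 0.000214), 0.28 ± 0.08 against Gen1 WT (edgeR adjusted p = 0.0313, under the fold threshold) and 0.71 ± 0.10 in Gen5 (edgeR adjusted p = 0.000957). In Gen5, the call on ARF6 dropped under the fold threshold without Gen5 memory replicate 1 (0.48) or Gen5 WT replicate 1 (0.496).

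The precursors of miR167 moved in both directions. MIR167A, singled out after its values were seen, had 23.8, 46.1 and 28.3 normalized counts in Gen5 memory plants, against 94.7, 101 and 92.2 in Gen5 WT plants, and was lower in Gen5 (-1.54 ± 0.29, edgeR adjusted p = 0.00372) and against Gen1 WT (-1.41 ± 0.25, edgeR adjusted p = 0.00523) but not called against nonmemory (-0.54 ± 0.35, edgeR adjusted p = 0.258). MIR167D had 197, 73.1 and 147 in Gen5 memory plants, against 54.3, 56.0 and 52.0 in Gen5 WT plants, and was called higher in all 3 comparisons, with log2 fold changes of 1.99 (nonmemory), 3.58 (Gen1 WT) and 1.37 (Gen5). Precursor counts do not measure the mature miRNA, which was not analysed here. The 3 MIR160 precursors were at 0 in all plants.

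ARF3 (AT2G33860, chr2:14325206-14328978, minus strand), also called ETTIN, and ARF4 (AT5G60450, chr5:24308255-24312784, minus strand) act together in leaf and flower polarity. ARF3 had 2993, 3258 and 2876 normalized counts in Gen5 memory plants and 2420, 3041 and 2925 in Gen1 memory plants, against 1903, 2063 and 1844 in nonmemory plants, 1719, 1838 and 1738 in Gen5 WT plants and 2053, 2298 and 2254 in Gen1 WT plants. The memory plants were higher without overlap in each comparison. For ARF3 the log2 fold change was 0.53 ± 0.10 against nonmemory (edgeR adjusted p = 0.00463), 0.36 ± 0.10 against Gen1 WT (edgeR adjusted p = 0.0314, under the fold threshold) and 0.80 ± 0.08 in Gen5 (edgeR adjusted p = 0.000144). Without Gen1 memory replicate 2 the value against nonmemory was 0.47 and without Gen1 nonmemory replicate 3 it was 0.499, both under the fold threshold.

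ARF4 had 2587, 2057 and 2790 normalized counts in Gen5 memory plants and 2599, 2901 and 2395 in Gen1 memory plants, against 1691, 1757 and 1640 in nonmemory plants, 1691, 1684 and 1782 in Gen5 WT plants and 2506, 2284 and 2333 in Gen1 WT plants. Gen1 WT overlapped the memory plants here and the other controls did not. For ARF4 the log2 fold change was 0.64 ± 0.09 against nonmemory (edgeR adjusted p = 0.00117), 0.16 ± 0.09 against Gen1 WT (edgeR adjusted p = 0.204) and 0.54 ± 0.12 in Gen5 (edgeR adjusted p = 0.0074). In Gen5, the call was under the fold threshold without Gen5 memory replicate 1 (0.497) or replicate 3 (0.43).

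TAS3, the source of the small RNAs that act on ARF3 and ARF4, had 207, 230 and 251 normalized counts in Gen5 memory plants and 340, 336 and 293 in Gen1 memory plants, against 565, 636 and 580 in nonmemory plants, 576, 601 and 606 in Gen5 WT plants and 913, 983 and 1034 in Gen1 WT plants. All memory plants were below all others, and Gen1 WT plants were the highest. For TAS3 the log2 fold change was -0.87 ± 0.11 against nonmemory (edgeR adjusted p = 0.000958), -1.58 ± 0.10 against Gen1 WT (edgeR adjusted p = 8.74e-05) and -1.36 ± 0.12 in Gen5 (edgeR adjusted p = 0.000101). Whether the fall of TAS3 bears on ARF3 and ARF4 was not tested.

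ARF2, the third gene with a TAS3 site, was not called. It had 34449, 31236 and 31648 normalized counts in Gen5 memory plants and 31028, 35075 and 32115 in Gen1 memory plants, against 30458, 29628 and 28664 in nonmemory plants, 29337, 30530 and 33429 in Gen5 WT plants and 28212, 29063 and 31572 in Gen1 WT plants. Its log2 fold changes of 0.15, 0.16 and 0.07 had edgeR adjusted p of 0.156, 0.205 and 0.554. ARF1 had 5753, 5351 and 5797 in Gen5 memory plants and 5712, 5983 and 5600 in Gen1 memory plants, against 5806, 5294 and 5485 in nonmemory plants, 5528, 5319 and 5457 in Gen5 WT plants and 4869, 4868 and 5121 in Gen1 WT plants, and was not called either.

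Among the genes with a miR160 site, ARF17 (AT1G77850, chr1:29272074-29275507, plus strand), which is known from pollen wall formation and adventitious rooting, rose. It had 1651, 1738 and 1488 normalized counts in Gen5 memory plants and 1469, 1531 and 1534 in Gen1 memory plants, against 959, 958 and 856 in nonmemory plants, 992, 895 and 1017 in Gen5 WT plants and 1144, 1157 and 1039 in Gen1 WT plants. All memory plants were above all others. For ARF17 the log2 fold change was 0.71 ± 0.08 against nonmemory (edgeR adjusted p = 0.000489), 0.45 ± 0.08 against Gen1 WT (edgeR adjusted p = 0.00394, under the fold threshold) and 0.76 ± 0.09 in Gen5 (edgeR adjusted p = 0.000515).

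ARF16 (AT4G30080, chr4:14703065-14706354, minus strand), which with ARF10 shapes the root cap, had 2398, 2404 and 2241 normalized counts in Gen5 memory plants and 1977, 2235 and 2335 in Gen1 memory plants, against 1424, 1588 and 1276 in nonmemory plants, 1472, 1480 and 1668 in Gen5 WT plants and 2308, 2269 and 2204 in Gen1 WT plants. Gen1 WT plants stood with the memory plants. For ARF16 the log2 fold change was 0.62 ± 0.10 against nonmemory (edgeR adjusted p = 0.00297), -0.04 ± 0.08 against Gen1 WT (edgeR adjusted p = 0.733) and 0.62 ± 0.08 in Gen5 (edgeR adjusted p = 0.000742). ARF10 was not called and had log2 fold changes of -0.34, -0.43 and -0.35 (edgeR adjusted p = 0.0994, 0.0504 and 0.0456), and without Gen1 memory replicate 2 it was called lower against Gen1 WT (-0.57).

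ARF11 (AT2G46530, chr2:19104632-19108486, plus strand), which has no such site, had the largest rise of any ARF gene. It had 1576, 1298 and 1349 normalized counts in Gen5 memory plants and 806, 1439 and 1459 in Gen1 memory plants, against 709, 510.5 and 519 in nonmemory plants, 513, 490 and 663 in Gen5 WT plants and 575, 567 and 918 in Gen1 WT plants. The lowest Gen1 memory plant lay below the highest Gen1 WT plant. For ARF11 the log2 fold change was 1.095 ± 0.24 against nonmemory (edgeR adjusted p = 0.00994), 0.86 ± 0.27 against Gen1 WT (edgeR adjusted p = 0.0473) and 1.35 ± 0.14 in Gen5 (edgeR adjusted p = 0.000235).

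ARF9 was called in Gen5 alone (0.53 ± 0.08, edgeR adjusted p = 0.00145) and not without Gen5 memory replicate 1 (0.46). The activators ARF5 (MONOPTEROS), ARF7 and ARF19, which drive vascular development, tropic growth and lateral roots, were not called, with log2 fold changes between -0.30 (ARF5 against Gen1 WT) and 0.10 (ARF19 against Gen1 WT). Their known targets in lateral roots, LBD16, LBD17, LBD18 and LBD29, summed to between 1.08 and 20.7 normalized counts per plant, with LBD18 alone passing the filter on low counts and not called. Summed over the 15 genes, ARF transcripts came to between 64340 and 71500 normalized counts in Gen5 memory plants and between 66060 and 73060 in Gen1 memory plants, against 56490 to 59610 in nonmemory, 57460 to 63320 in Gen5 WT and 59770 to 63710 in Gen1 WT plants.

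**Figure D4:**
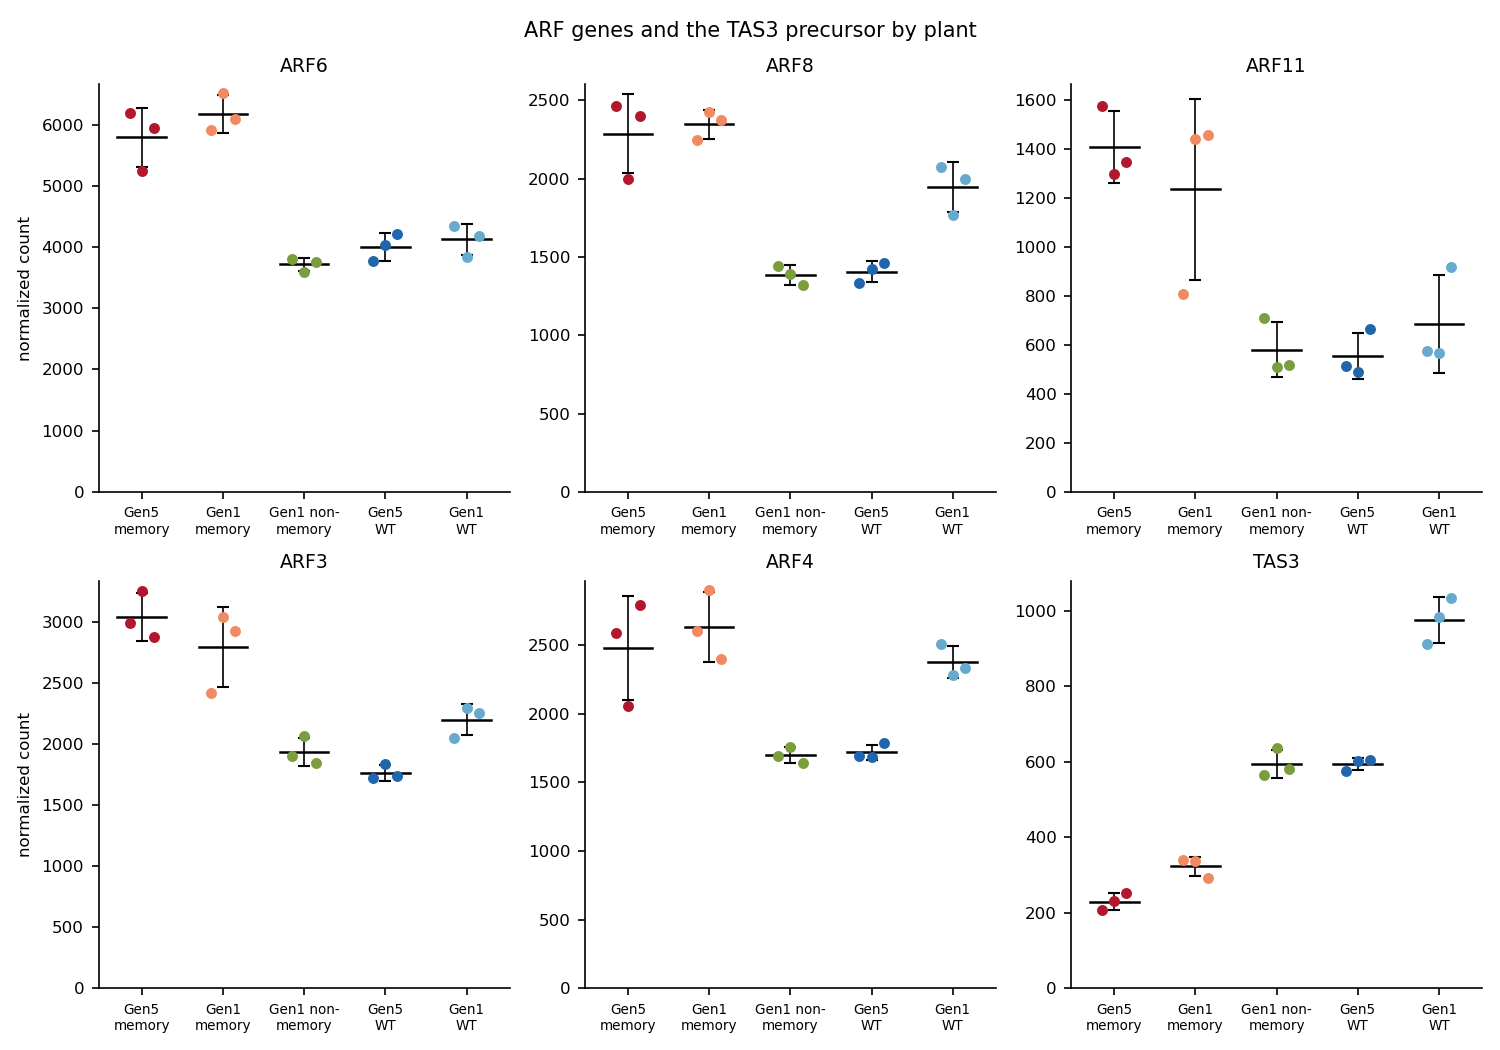
Normalized counts of 5 ARF genes and of the TAS3 precursor in each plant (points), with the group mean (line) and SD (bar) over 3 plants, for Gen5 memory, Gen1 memory, Gen1 nonmemory, Gen5 WT and Gen1 WT from left to right. The ARF genes are higher and TAS3 is lower in both memory groups, and in ARF4 and ARF8 the Gen1 WT plants lie above nonmemory and Gen5 WT plants.

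The receptor genes were not called in any memory comparison of all plants. All 4 held a site for miR393 (miR393a-5p on chromosome 2, printed with its seed in capitals), with 2 to 3 mismatches.
miR393a-5p: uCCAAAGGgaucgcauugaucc
TIR1 (2 mismatches and 1 wobble pair): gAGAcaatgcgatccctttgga
AFB1 (3 mismatches and 1 wobble pair): gAGAcCatgcgatccctttgga
AFB2 (2 mismatches): gAaAcaatgcgatccctttgga
AFB3 (2 mismatches): gAaAcaatgcgatccctttgga

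TIR1 (AT3G62980, chr3:23273065-23276630, minus strand) had 6554, 6528 and 7109 normalized counts in Gen5 memory plants and 6186, 6929 and 6808 in Gen1 memory plants, against 6974, 6402 and 6682 in nonmemory plants, 5127, 5351 and 5728 in Gen5 WT plants and 7141, 7298 and 8014 in Gen1 WT plants. The 2 WT groups lay on either side of the memory plants. For TIR1 the log2 fold change was -0.16 ± 0.08 against Gen1 WT (edgeR adjusted p = 0.153) and 0.33 ± 0.08 in Gen5 (edgeR adjusted p = 0.0117, under the fold threshold), and it was within 0.01 of 0 against nonmemory (edgeR adjusted p = 0.965).

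AFB3 (AT1G12820, chr1:4368760-4371298, minus strand), known from nitrate responses of roots, had 2883, 3350 and 3013 normalized counts in Gen5 memory plants and 3051, 3335 and 3328 in Gen1 memory plants, against 2956, 2754 and 2453 in nonmemory plants, 2286, 2399 and 2563 in Gen5 WT plants and 4840, 4196 and 4477 in Gen1 WT plants. Gen1 WT plants stood above every other plant. For AFB3 the log2 fold change was 0.26 ± 0.08 against nonmemory (edgeR adjusted p = 0.0433), -0.47 ± 0.08 against Gen1 WT (edgeR adjusted p = 0.00371) and 0.36 ± 0.08 in Gen5 (edgeR adjusted p = 0.0108), each under the fold threshold. Of its exon bases, 31.4% are shared with genes on the opposite strand.

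AFB2 (AT3G26810, chr3:9867652-9870782, plus strand) had 2538, 3337 and 2991 normalized counts in Gen5 memory plants and 2912, 2865 and 3071 in Gen1 memory plants, against 3974, 3744 and 4120 in nonmemory plants, 3413, 3503 and 3968 in Gen5 WT plants and 4067, 3854 and 4344 in Gen1 WT plants. All memory plants were below all others, and the log2 fold changes of -0.41 ± 0.06, -0.46 ± 0.07 and -0.29 ± 0.11 stayed under the fold threshold (edgeR adjusted p = 0.00208, 0.00251 and 0.077). AFB1 had 975, 1049 and 1155 in Gen5 memory plants and 1126, 1124 and 1188 in Gen1 memory plants, against 1369, 973 and 974 in nonmemory plants, 888, 1122 and 1189 in Gen5 WT plants and 881, 928 and 1168 in Gen1 WT plants. These AFB1 ranges overlap in every comparison.

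Other parts of the pathway were read from lists of genes. Of the 5 TOPLESS co-repressor genes, TPL was lower in all 3 memory comparisons (-0.55, -0.69 and -0.70, edgeR adjusted p = 0.00111, 0.00072 and 0.000494) and TPR2 in Gen5 (-0.53, edgeR adjusted p = 0.00147), and none was higher. Of the 10 genes of the receptor complex and its regulators, AFB5 was lower against Gen1 WT (-0.54) and in Gen5 (-0.55), and none was called against nonmemory. TPR2 and AFB5 were singled out after their values were seen. In the order of the 3 memory comparisons, 20%, 20% and 40% of the co-repressor genes were called. For the receptor complex and its regulators the shares were 0%, 10% and 10%. The share of all features called was 23.4%, 20% and 27%. The co-repressor list was thus above this share in Gen5 alone, and the receptor complex list in no comparison.

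Of 14 listed auxin synthesis genes, 4 were at 0 in all plants. Of the 6 tested, 4 were higher against nonmemory and 4 against Gen1 WT. Of the 7 tested in Gen5, 5 were higher and 1, YUC5, was lower. Over all features, 11.1%, 9.52% and 13.3% were called higher in that order. Some synthesis genes passed the filter on low counts only through 1 group. This was the memory group for YUC9, and for YUC8 except against Gen1 WT, and it was Gen5 WT for YUC5. Their calls, and so these counts of genes, were in part set by the filter. YUC5, singled out after its values were seen, had 0, 0 and 1.05 normalized counts in Gen5 memory plants, against 19.7, 21.8 and 13.7 in Gen5 WT plants. YUC2 rose by 1.499, 1.26 and 2.46 on the log2 scale (edgeR adjusted p = 0.0155, 0.027 and 0.00149). YUC8, which like YUC2 and YUC9 encodes an enzyme of the last step of synthesis, averaged 148 ± 43.9 normalized counts in Gen5 memory and 119 ± 36.2 in Gen1 memory plants, with 5.64, 3.87 and 0 in the nonmemory plants, and against 11.7 ± 5.55 in Gen5 WT and 31.1 ± 15.3 in Gen1 WT plants (SD, n = 3). YUC9, with 70.8 ± 55.8 in Gen5 memory and 65.0 ± 18.5 in Gen1 memory plants, was at 0 in all nonmemory plants and averaged 1.63 ± 1.14 in Gen5 WT and 2.52 ± 0.56 in Gen1 WT plants.

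Genes for auxin conjugation and oxidation went both ways. Of 8 tested, 3 were higher and 2 lower against nonmemory, 1 higher and 1 lower against Gen1 WT, and 3 higher and 1 lower in Gen5. Over all features, 23.4%, 20% and 27% were called in that order. GH3.3, which joins auxin to amino acids, rose by 1.77 against nonmemory (edgeR adjusted p = 0.00395) and 1.32 in Gen5 (edgeR adjusted p = 0.0165), and GH3.9 of the same family rose by 1.89 against nonmemory (edgeR adjusted p = 0.000285). GH3.1 fell by 2.51 against nonmemory (edgeR adjusted p = 0.0187).

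The control groups themselves differed. Between Gen1 nonmemory and Gen1 WT plants, 4 of 44 tested members were called, or 1 higher and 3 lower, against 7.71% of all 19827 features (2.82% higher and 4.89% lower). IAA29, ARF16 and AFB3 were lower in nonmemory plants (-1.61 ± 0.39, -0.66 ± 0.08 and -0.73 ± 0.08, edgeR adjusted p = 0.0284, 0.00335 and 0.00266). IAA30 was higher (0.80 ± 0.21, edgeR adjusted p = 0.0376), a call lost without any one of 5 of the 6 plants and with the replicate block (0.80, edgeR adjusted p = 0.063). Without Gen1 nonmemory replicate 3 or Gen1 WT replicate 1, 2 calls were left, as IAA29 also lost its call (edgeR adjusted p = 0.0997 and 0.0556), which it lost without Gen1 nonmemory replicate 2 as well (0.0933). ARF4, ARF8 and IAA3 were each called in 1 to 3 of the fits with 1 plant left out, with log2 fold changes of up to -0.52 for ARF4, -0.56 for ARF8 and 0.63 for IAA3.

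Between Gen5 WT and Gen1 WT plants, 8 of 44 tested members were called, or 2 higher and 6 lower, against 10.7% of all 19856 features (4.69% higher and 6.05% lower). IAA3 (0.76 ± 0.15) and IAA18 (0.53 ± 0.08) were higher in Gen5 WT plants, with edgeR adjusted p of 0.0112 and 0.0045. IAA1, IAA5, IAA28, IAA29, ARF16 and AFB3 were lower, by log2 fold changes of -1.18, -1.05, -0.62, -1.15, -0.56 and -0.90. IAA28, a repressor of lateral root formation, averaged 901 ± 139 normalized counts in Gen5 WT plants and 1379 ± 193 in Gen1 WT plants (SD, n = 3). The calls on IAA5 and IAA29 were lost in 4 and 5 of the 6 fits with 1 plant left out, with adjusted p up to 0.113 and 0.135, and those on IAA18 (0.46 without Gen5 WT replicate 3) and IAA28 (adjusted p = 0.0602 without Gen5 WT replicate 2) were also lost in some fits.

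Between Gen5 memory and Gen1 memory plants, no member was called, as was no feature of the 19716 tested by edgeR (0%, with 0% higher and 0% lower). At an unadjusted p below 0.05 there were 353 features (1.79%), among them IAA27 and IAA29, and DESeq2 called 6 features and no member. The log2 fold changes of the 44 tested members lay between -0.59 (IAA30, SE 0.60) and 0.47 (IAA29, SE 0.20).

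The memory difference itself was compared between generations as an interaction in a fit of the 12 memory and WT plants, and 7 of 44 members passed at an edgeR adjusted p below 0.05, against 6.03% of all 20195 features. The difference was more positive in Gen5 for IAA1 (1.01 ± 0.19, edgeR adjusted p = 0.0104), IAA29 (1.61 ± 0.42, edgeR adjusted p = 0.0429), ARF16 (0.65 ± 0.11, edgeR adjusted p = 0.00528), TIR1 (0.48 ± 0.11, edgeR adjusted p = 0.0214) and AFB3 (0.82 ± 0.11, edgeR adjusted p = 0.00219). It was more negative in Gen5 for IAA3 (-0.79 ± 0.19, edgeR adjusted p = 0.0324) and IAA18 (-0.60 ± 0.13, edgeR adjusted p = 0.0191). In all of these except TIR1 the 2 WT groups had been called different, and TIR1 was lower in Gen5 WT plants by -0.48 ± 0.07 (edgeR adjusted p = 0.00253, under the fold threshold).

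IAA1 (AT4G14560, chr4:8360996-8362033, plus strand) shows the pattern. It had 1251, 1547 and 1163 normalized counts in Gen5 memory plants, against 638, 714 and 730 in Gen5 WT plants. In Gen1 it had 1471, 1341 and 1595 in memory plants, against 1442, 1044 and 1105 in nonmemory plants and 1512, 1309 and 1871 in Gen1 WT plants. Only the Gen5 WT plants were apart from the rest. In AFB3, ARF16 and IAA29 the Gen1 WT plants were the ones apart from the other controls. The root genes noted above were also highest in Gen1 WT plants, and their part in these results was not tested.

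Only IAA1, ARF16 and AFB3 kept the interaction in each of 12 fits with 1 plant left out. IAA29 lost it in 10 of 12 (adjusted p up to 0.117), IAA3 in 10 of 12 (up to 0.0856), IAA18 without Gen1 WT replicates 1 or 2 (up to 0.0567) and TIR1 without Gen5 WT replicates 1 or 2 (up to 0.0682). The count of members passing was 4 without Gen5 WT replicate 1, without Gen5 WT replicate 2 and without Gen1 WT replicate 1. With the replicate block, IAA29 had 1.60 (adjusted p = 0.0613) and ARF3 passed (0.44, adjusted p = 0.035).

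**Figure D5:**
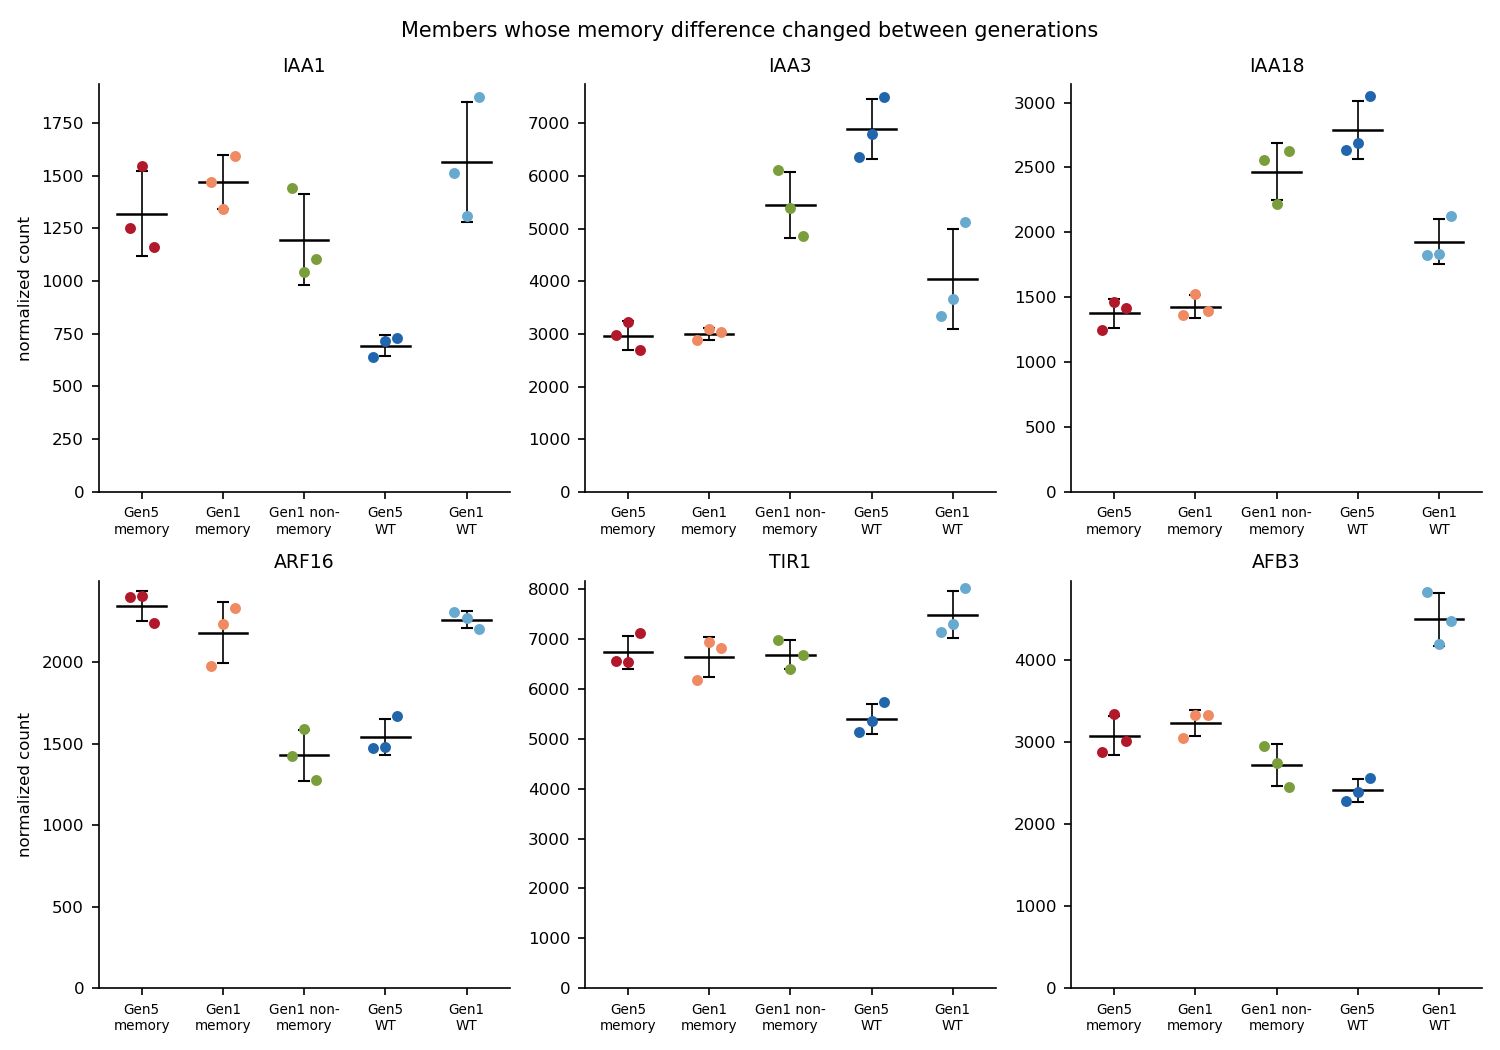
Normalized counts of 6 of the 7 members with an interaction in each plant (points), with the group mean (line) and SD (bar) over 3 plants, for Gen5 memory, Gen1 memory, Gen1 nonmemory, Gen5 WT and Gen1 WT from left to right. The 2 memory groups lie close together in each gene, while Gen5 WT and Gen1 WT differ, with AFB3 and ARF16 high in Gen1 WT and IAA1 low in Gen5 WT.

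Genes of these families are related in sequence, and none of the 48 transcripts held a stretch of 100 bases that occurs elsewhere in TAIR10.1, so that reads of that length can be placed. Besides IAA3 and AFB3, the share of exon bases that lie on a gene of the other strand was highest in IAA32 (44.2%), IAA13 (35.3%), IAA10 (28.8%) and AFB1 (20.4%), none of which was called. It was 6.15% in IAA5, which was called, and at most 5.73% in the other members. In IAA34, 15.4% of exon bases lie on a gene of the same strand, AT1G15060.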

How the data were processed

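RNA was sequenced from 15 single plants, 3 in each of 5 groups, labelled as biological replicates, and whether they were grown as separate cultures beyond that is not stated, so that p-values measure the spread between these plants. The authors deposited raw counts of reads per gene for each plant, made from unstranded libraries with STAR 2.7.0a (uniquely mapped reads only) and QoRTs, and the submitters' notes name the build TAIR10. Rows that name no gene held 0.879% to 1.08% of each table and were left out, which left 77169986 to 79202824 counts per plant.

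The counts were fitted with edgeR 4.0.16 in R 4.3.3 (TMM scaling, filterByExpr, quasi-likelihood test) on the 6 plants of each comparison, or on 12 plants for the interaction, with Benjamini-Hochberg adjustment over all tested features. The thresholds were an adjusted p below 0.05 and a log2 fold change over 0.5 in size, with no fold threshold for the interaction. The SE was derived from the F statistic. Replicates of a group differed by more than sampling noise (chi-square per degree of freedom 12.4 to 117). Alternatives were RLE size factors, DESeq2 1.42.0, other filters, a fold threshold of 1, a fit of all 15 plants, a replicate block and leaving out each plant.

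Gene models, exon lengths and sequences came from RefSeq's TAIR10.1, read with Biopython 1.88 in Python 3.11.15, and figures were drawn with matplotlib 3.10.9. Values in every plant are given for members called in at least 2 of the 3 memory comparisons, those with an interaction, the 4 receptors and the 2 with the highest level per kb in each family. For other lists, at most 3 called genes with the largest change against nonmemory are named. Members and lists were chosen with earlier results of these data known.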

Additional observations from a re-analysis of the deposited data

Results flagged for a closer look

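For 7 members the memory difference in Gen5 (Gen5 memory against Gen5 WT) departed from that in Gen1 (Gen1 memory against Gen1 WT) by edgeR's interaction test on 12 plants. The difference of the log2 fold changes was 1.01 for IAA1, 1.61 for IAA29, 0.65 for ARF16, 0.48 for TIR1 and 0.82 for AFB3, and it was -0.79 for IAA3 and -0.60 for IAA18. For each of these genes no difference was called between Gen5 memory and Gen1 memory plants. Between Gen5 WT and Gen1 WT plants, all but TIR1 were called.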

How the results depend on the processing

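With a log2 fold threshold of 1 in place of 0.5, the called members numbered 4 (Gen1 memory against nonmemory), 2 (Gen1 memory against Gen1 WT), 7 (Gen5), 1 (nonmemory against Gen1 WT) and 3 (Gen5 WT against Gen1 WT). The share of all features called at a threshold of 1 was not computed. DESeq2 gave 11 members with an interaction, against 7 by edgeR. Over all features, DESeq2 gave 2014 and edgeR 1217. With 1 plant left out, the counts ranged over 14 to 15, 3 to 5, 14 to 18, 2 to 6 and 6 to 9 in those 5 comparisons, 0 to 0 between the memory groups and 4 to 8 for the interaction.

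The replicate numbers were not used as pairs in the main fits. The correlation of same-numbered deviations lay between -0.268 and 0.333, and so few plants per group cannot settle whether same-numbered plants were paired. With the replicate block, the counts were 15, 6, 18, 3, 8, 0 and 7 in the same order, and the calls on IAA30 (nonmemory against Gen1 WT, 0.80), IAA5 (Gen5 WT against Gen1 WT, -1.05, adjusted p = 0.0538) and the interaction of IAA29 (1.60) were lost.

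Of 646 values of single members under 6 other settings, 629 kept their direction and call, 8 gained a call, 4 lost one and 5 changed sign. All changes of sign were of uncalled values near 0. They were TIR1 against nonmemory (1.42e-05 with RLE factors) and AFB1 in Gen5 (-2.84e-05 with RLE factors, -0.0019 with DESeq2, -0.0017 without the filter and -0.0092 in the fit of 15 plants). With 1 plant left out, and among the members with values given in every plant, values of the 3 memory comparisons and the interaction ranged over both signs for TIR1 (-0.039 to 0.039) and AFB1 (-0.027 to 0.24) against nonmemory, IAA1 (-0.19 to 0.067) and ARF16 (-0.082 to 0.040) against Gen1 WT, AFB1 in Gen5 (-0.12 to 0.090), and the interactions of IAA2 (-0.23 to 0.042), IAA4 (-0.045 to 0.11), IAA6 (-0.69 to 0.18) and ARF6 (-0.10 to 0.016). The cause was not tested. At this depth the 4 members with at most 12.2 normalized counts were not tested.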
